A study of Mus musculus with 24 samples.

Results

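The loci described here carried an m6A peak in all 4 control kidneys and in none of the 4 kidneys of the cisplatin injury group (IG). They numbered 438 among the 16801 loci formed from the 12 kidneys, and they lay in 387 genes. They are called lost loci in the following, where lost means that no peak was listed in IG. They were chosen by the presence of peaks in the control and IG lists, so the contrast between these groups is a description and was not tested. Among the 16061 loci with a peak in at least 1 control or IG kidney, 2.73% met this rule, and among the 5328 loci with a peak in all control kidneys it was 8.22%. The treatment group (TG) was not used to choose them.

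The animals were male C57BL/6 mice (strain C57 in the labels), 8 weeks old, with 4 mice per group. Control and IG mice received normal saline every day for 14 days by intraperitoneal injection, and TG mice received berberine, a plant alkaloid, at 20 mg/kg per day over the same days. IG and TG mice then received 1 intravenous injection of cisplatin at 20 mg/kg, which accumulates in renal tubular cells and injures them, while controls received vehicle. All kidneys were taken 72 h after that injection, without further berberine. Whole kidney tissue was measured, with tubular, glomerular, vascular and immune cells together, and there was no group with berberine alone.

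N6-methyladenosine (m6A) is placed on mRNA by a methyltransferase complex around METTL3 and METTL14, removed by the demethylases FTO and ALKBH5, and read by proteins such as the YTHDF family, which act on translation and decay. It is found mostly in a short consensus, RRACH, which is G or A, G or A, A, C and then A, C or T, and it is known to be common near stop codons and in long internal exons. In MeRIP-seq, RNA fragments are precipitated with an antibody against m6A, and stretches with more reads than the background are called as peaks. The deposited lists give each peak a score, -log10 of the calling p-value times 10, and the lowest scores lie just above 13.0, the score that a p-value of 0.05 gives. The score mixes enrichment with read depth and is no methylation level, and many peaks sit exactly at 3100, with few above it. The lists held 91013 peaks with scores up to 3233 and no read counts, so the depth is unknown. RNA amounts were not analysed here, so less methylation per transcript, less RNA per cell and fewer cells of the type that makes the RNA cannot be told apart at any locus.

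The lists differed in length, with 8531 to 9579 peaks per control kidney, 6745 to 8357 per IG kidney and 5901 to 6753 per TG kidney. Markers of single cell types were looked up in the same lists. Of 16 podocyte markers, 9 to 11 had a listed peak in the control kidneys, 7 to 8 in IG and 7 to 9 in TG, and of 20 endothelial markers the ranges were 8 to 9, 4 to 7 and 3 to 8. Of 55 proximal tubule markers, 7 to 9, 6 to 11 and 6 to 7 had a peak, and of 26 immune markers 2 to 4, 1 to 4 and 2 to 6. The part of cell composition in the lost loci was not tested.

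The sequences below show how the consensus sits in lost loci that the results turn on. Each is a 21 nt stretch of the GRCm38 (mm10) genome on the strand of the gene, 5′ to 3′, with the match in capitals and its A at position 11. It is the GGACT match nearest to the middle of the locus or, where the locus has no GGACT, the nearest RRACH match.
Prpf38b, 3′ UTR, chr3:108903897-108903917, minus strand: gattgtgtAAACTtggatcac
Tmem252, 3′ UTR, chr19:24677822-24677842, plus strand: caaggcagGGACTaggatgct
Tgoln1, CDS, chr6:72615836-72615856, minus strand: ctggcaggGGACTctgacttc
Pnrc1, 3′ UTR, chr4:33246005-33246025, minus strand: agacctttGGACTcgaaagga
Casr, 5′ UTR, chr16:36517977-36517997, minus strand: acttctcaGGACTcgaggacc
Slc5a3, CDS, chr16:92079149-92079169, plus strand: taaacattGGACTttttgctg
Dido1, CDS, chr2:180687617-180687637, minus strand: gatgagcaGGACTctgggtgc
Kif20b, CDS, chr19:34959500-34959520, plus strand: aatgtacgAAACAgggagatg
Plvap, CDS, chr8:71508036-71508056, minus strand: gcgtggcgGGACTcgctgatc
Kdm6b, CDS, chr11:69404963-69404983, minus strand: ttaccgggGGACTggagcagc
Csgalnact1, 3′ UTR, chr8:68357566-68357586, minus strand: tgatctaaGGACTggccaatc
Myh9, CDS, chr15:77768948-77768968, minus strand: cttcagaaGGACTtggaaggc
Epas1, 3′ UTR, chr17:86833009-86833029, plus strand: gcctaaggGGACTtgctgctc
Gnaz, CDS, chr10:74991512-74991532, plus strand: gtgaaatcAAACTtctcctgc
Ythdf1, CDS, chr2:180910960-180910980, minus strand: tcccctgtGGACTacggcacc
In this set, Kif20b, Gnaz and Prpf38b had no GGACT in the locus. A match marks letters in the genome and no measured site, since a peak does not resolve the methylated base.

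Over all lost loci, RRACH occurred on the strand of the gene in 95.9%, against 95.8% of the other 4890 loci with a peak in all control kidneys and 93.8% of all loci. The opposite strand held it in 85.4%, 81.5% and 81.7% of these sets. The stronger form GGACT, which every RRACH search also finds, occurred on the gene strand in 46.6% of lost loci, in 44.7% of the other loci and in 39.1% of all loci, and on the opposite strand in 47.7%, 42.5% and 36.2%. Lost and other loci were thus close in both motifs. The median GC content was 50.5% in lost loci and 48.5% in the others, and the median length was 429 bp and 464.5 bp (lost loci 37 to 5278 bp long).

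Along the transcript, 57.6% of the 427 lost loci that could be placed had their midpoint in the CDS, 14.1% within 200 nt of the stop codon, 12.6% within 200 nt of the start codon, 15.0% in the 3′ UTR and 0.703% in the 5′ UTR. The other loci with a peak in all control kidneys had 64.7%, 11.99%, 10.4%, 12.1% and 0.882%. The last exon held 31.9% of lost and 26.7% of other loci, and an internal exon held 59.5% and 65.6%. A locus spanned exactly 1 annotated exon in 65.8% of lost and 69.6% of other loci, which shows that the lists often give whole exons as peaks. These segment shares depend on how codon segments were drawn.

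Most lost loci had moderate scores in the controls. Their mean control score ran from 17.7 to 3007 with a median of 63.8, against a median of 168 in the other loci. A mean of at least 100 was found at 28.1% of lost loci and 67.6% of other loci, and 6 lost loci had a mean of at least 1000. At 30.6% of lost loci the lowest of the 4 control scores was under 20 and so close to the lowest score of the lists, against 11.2% of the others. Just outside the rule lay 427 loci with a peak in all control kidneys and in 1 IG kidney, with a median mean control score of 69.8 and a median IG score of 32.3, and 572 loci with a peak in 3 control kidneys and none in IG, with a median control score of 36.1.

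The 6 strongest lost loci lay in Prpf38b, Rbm39, Tmem252, Tgoln1, Pnrc1 and Rpl26. Prpf38b, which encodes a splicing factor, had control scores of 3100, 2730, 3100 and 3100 at a locus of 1822 bp around its stop codon (chr3:108902941-108904762), and 3100 in TG kidneys 1, 3 and 4 with no peak in TG kidney 2. It was thus at 3100 in 3 TG kidneys and absent from the lists of all IG kidneys, and no other locus of the gene was listed in any kidney. Rbm39, an RNA-binding splicing regulator, had control scores of 2149, 3100, 3199 and 3100 at an exon of 195 bp (chr2:156172828-156173022) and 3100 in TG kidney 4 alone. The other Rbm39 locus was listed in 3 IG kidneys and no TG kidney. The input libraries that could show the coverage were not analysed here.

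Tmem252, a small membrane protein, had control scores of 2648, 3100, 3100 and 2540 in its 3′ UTR (chr19:24677536-24678853). Tgoln1, a protein of the trans-Golgi network, had 1570, 3100, 2657 and 2518 in its second exon (chr6:72615524-72616449). Neither gene had a listed peak in any TG kidney or at any other locus, so both were without a peak in all 8 cisplatin kidneys. Pnrc1, a nuclear receptor coactivator, had 1622, 1666, 2481 and 2451 around its stop codon (chr4:33245423-33246507) and 1694 in TG kidney 4 alone. Rpl26, a protein of the large ribosomal subunit, had 1795, 1317, 2278 and 2339 in its last exon (chr11:68904365-68904534) and 1699 in TG kidney 2 alone. Ribosomal protein genes have many processed copies in the genome, so reads of Rpl26 may be shared with them. Rpl4, another protein of that subunit with a lost locus, had 286.7, 681, 245 and 353 in the controls and no peak in TG.

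A further 4 loci completed the 10 with the highest mean control score. Nepn encodes an extracellular leucine-rich protein, and its control scores of 558, 731, 949 and 940 had no counterpart in TG. Acot13, a thioesterase of fatty acyl-CoA at mitochondria, had 569, 706, 1469 and 356 and likewise no peak in TG. Lima1, an actin-binding protein, had 410, 913, 965 and 869 and a score of 436 in TG kidney 4. Casr is described with the loci that had a peak in every TG kidney. The heat map shows the scores of named loci, which were chosen in part by whether they had a peak in TG, so the share of blank TG cells in it is no measure of all lost loci.

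**Figure D1:**
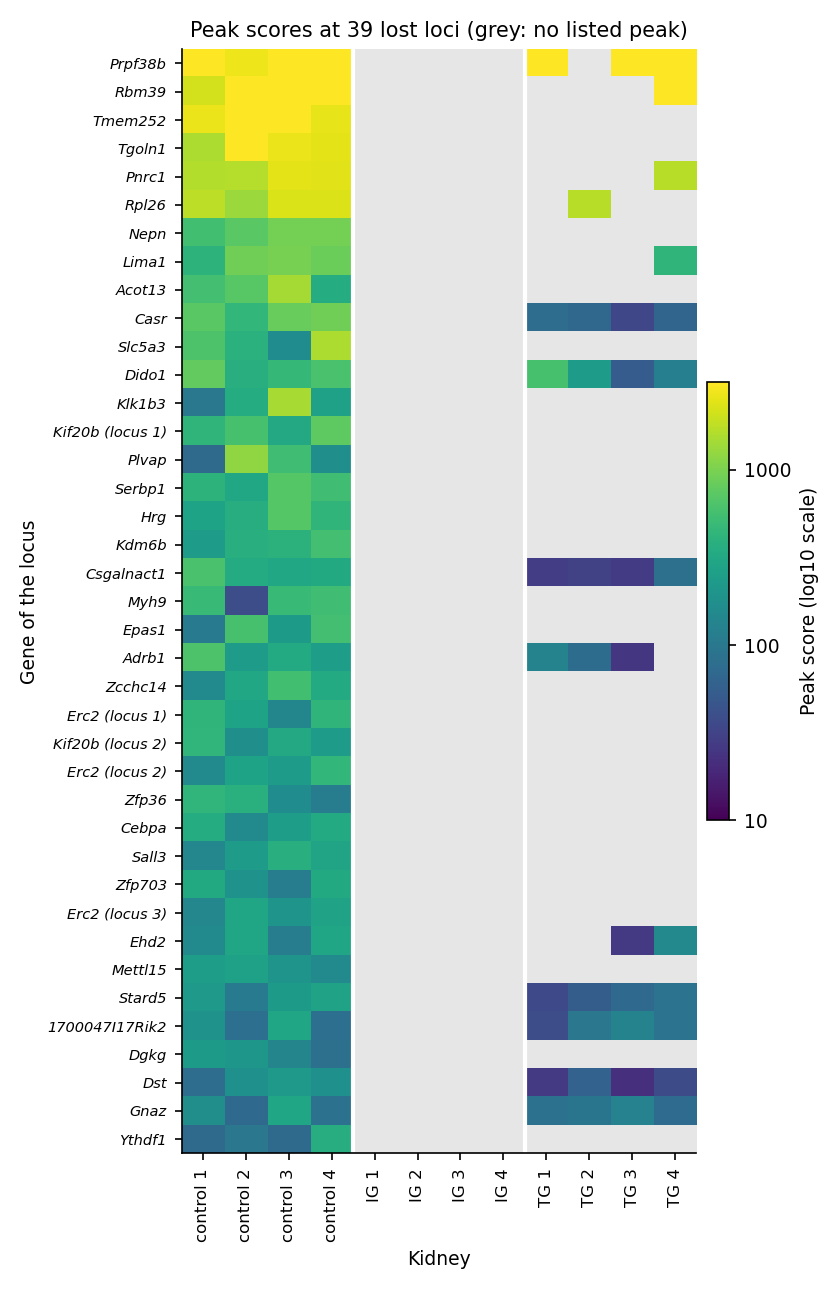
Peak score (colour, log10 scale) of 39 named lost loci with high mean control scores, one row per locus, in the 12 kidneys (columns). Grey cells are kidneys without a listed peak. All IG cells are grey by the rule. In TG a score is shown in all 4 kidneys at Casr, Dido1, Csgalnact1, Stard5, 1700047I17Rik2, Dst and Gnaz. It is shown in 3 at Prpf38b and Adrb1, in 2 at Ehd2 and in 1 at Rbm39, Pnrc1, Rpl26 and Lima1.

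Further loci with high control scores had no peak in any TG kidney. Slc5a3, the sodium/myo-inositol cotransporter that takes up an osmolyte in the renal medulla, had control scores of 627, 391, 163 and 1554 over 4762 bp (chr16:92076720-92081481). Plvap, a protein of the diaphragms of fenestrated endothelium, had 72.7, 1205, 547 and 176 in exon 3 (chr8:71507601-71508307). Control scores thus varied widely between kidneys even where every control kidney had the peak. Epas1, which encodes the hypoxia-inducible factor HIF-2α, had 108, 593, 229 and 567 in its last exon. None of these 3 genes had any other listed locus.

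Kdm6b, a demethylase of histone H3, had control scores of 240, 377, 405 and 572 in its exon 11 (chr11:69404006-69406173), with no other locus in the gene. Hrg, a plasma glycoprotein made mainly by the liver, had 281, 365, 693 and 437 in its last exon. Klk1b3, a kallikrein of a large family of near-identical genes in mouse, had 101, 352, 1477 and 267, and reads of its family members cannot be told apart with certainty. Serbp1 encodes an RNA-binding protein of ribosomes, and its locus at the start codon (chr6:67266979-67267409) had 410, 307, 689 and 545. None of the 4 had a peak at this locus in IG or TG.

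Most lost loci also had no peak in TG. Of the 438, 272 (62.1%) had a peak in no TG kidney (of all loci with a peak in all control kidneys 10.6% had none, and of all loci with a peak in control or TG 3.73% had one in all control and no TG kidneys), 89 (20.3%) in 1, 50 (11.4%) in 2, 16 (3.65%) in 3 and 11 (2.51%) in 4. Single TG kidneys had a peak at 73, 72, 66 and 70 of them, which was 16.0 ± 0.707% (SD, n = 4). For the other loci with a peak in all control kidneys the share per TG kidney was 77.8 ± 2.41% (SD, n = 4), and for the 3040 loci that all control and all IG kidneys shared it was 92.6 ± 1.42% (SD, n = 4). No TG kidney came near these values at the lost loci. Loci with a peak in all TG and no IG kidney made up 0.225% of the 13357 loci with a peak in TG or IG, so the 11 are read beside that share. With each list cut to its 5901 best peaks, 221 loci were lost, and the share per TG kidney was 24.8 ± 3.27% (SD, n = 4) of them and 85.6 ± 0.942% of the other loci, with 18 lost loci in 4 TG kidneys. Without IG kidney 1 or IG kidney 3 in the rule, 20 lost loci had a peak in 4 TG kidneys, and with scores of at least 71.3, the median of all lists, 2 had one. Lost loci with and without a TG peak had about the same median control score, 63.6 and 64.0.

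The share with a TG peak grew with the number of IG kidneys that had one. With a peak in 1 IG kidney, 70.3% of 427 loci had a peak in at least 1 TG kidney, against 37.9% of the lost loci. With 2 IG kidneys the share was 80.0% of 596 loci, with 3 it was 95.8% of 827 and with 4 it was 99.6% of 3040. Control scores grew along the same order, with medians of 63.8, 69.8, 85.2, 117 and 243, and their part in it was not tested.

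**Figure D2:**
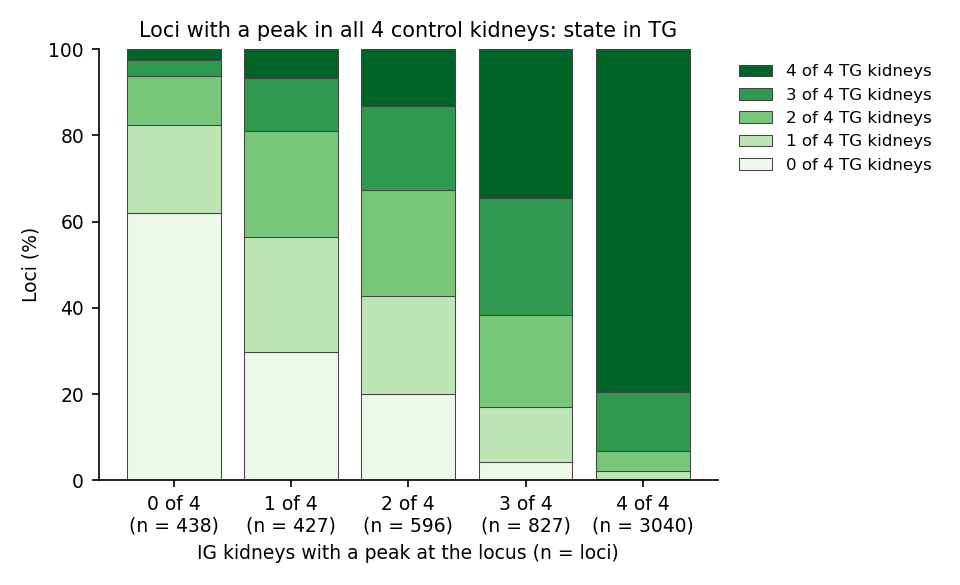
Share of loci (%, stacked) with a peak in 0 to 4 TG kidneys, for loci with a peak in all 4 control kidneys, by the number of IG kidneys with a peak (n is the number of loci). The 438 lost loci form the bar at the left, of which 62.1% had no TG peak and 2.51% had 4.

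At the lost loci the rule sets IG to 0, so IG and TG cannot be compared there. The comparison was made instead in kidneys that did not choose the loci. For each of the 16 pairs of 1 control and 1 IG kidney, loci were chosen in the other 3 control and 3 IG kidneys (618 to 776 loci), and the pair left out was examined. The control kidneys left out had a peak at 73.3 to 80.8% of the loci, with a mean of 76.4 ± 3.33% (SD, n = 4). The IG kidneys left out had one at 19.9, 20.2, 22.2 and 11.3% (18.4 ± 4.84%, SD, n = 4), and the TG kidneys at 18.8, 17.7, 15.6 and 19.2% (17.8 ± 1.60%, SD, n = 4). IG and TG kidneys overlapped, and both lay below every control kidney. The sets overlap, so no test was made.

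The order of IG and TG changed when all lists were given the same length. The deposited lists held 5901 to 6753 peaks in TG and 6745 to 8357 in IG, and the shortening also changed which loci were chosen and the lowest score in each list. With each list cut to its 5901 best peaks, the number in the shortest list, the IG kidneys left out had a peak at 23.9, 21.9, 17.1 and 17.5% of the 339 to 396 loci (20.1 ± 3.34%, SD, n = 4). The TG kidneys had one at 25.6, 29.2, 26.4 and 25.6% (26.7 ± 1.74%, SD, n = 4). All 4 TG kidneys then lay above all 4 IG kidneys, and all 8 stayed below the lowest control kidney at 73.5%. The peaks found in these kidneys were weak. With the lists as deposited, their median scores were 28.3 to 32.4 in IG and 25.7 to 31.7 in TG, against 55.9 to 68.2 in the controls. With equal list lengths they were 43.1 to 66.1 in IG, 33.2 to 51.7 in TG and 110.0 to 138 in the controls.

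**Figure D3:**
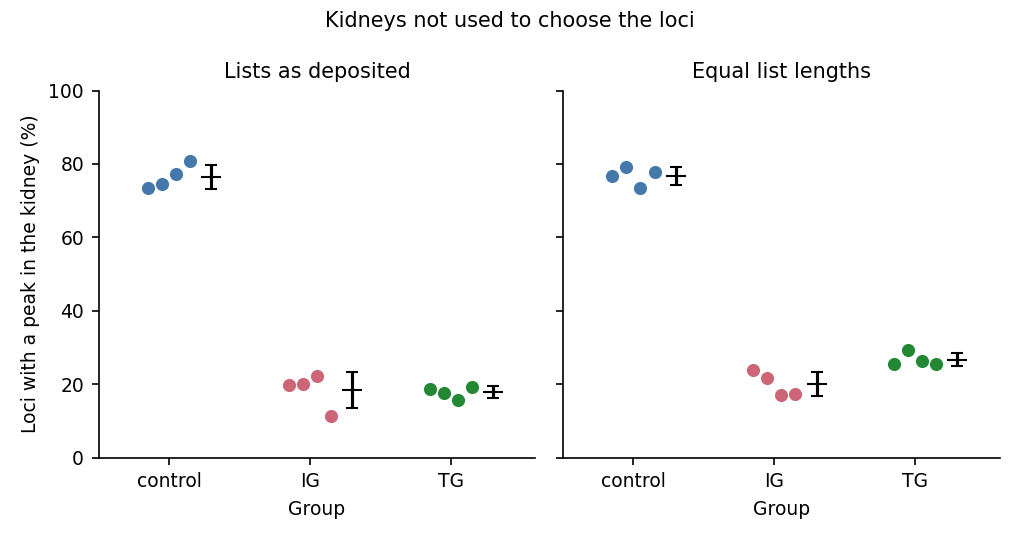
Share of loci (%) with a peak in kidneys that did not choose the loci, per kidney (points) with the mean and SD of the 4 kidneys (bars at the right of each group), with the lists as deposited and with 5901 peaks per list. The lowest control kidney is at 73.3% at the left and 73.5% at the right, and TG lies within the IG range at the left and above it at the right.

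A peak in all 4 TG kidneys was listed at 11 lost loci. Casr, the calcium-sensing receptor of the thick ascending limb and other nephron segments, had control scores of 718, 454, 821 and 901 at its second exon (chr16:36517602-36518028) and TG scores of 78.9, 69.9, 33.8 and 64.7. Every TG score was below every control score, by a wide margin. Dido1, a chromatin-associated protein, had 800, 370, 466 and 608 in its exon 4 (chr2:180687476-180687797) and 597, 236, 53.5 and 119 in TG, where TG kidney 1 lay within the control range. Csgalnact1, an enzyme that starts chondroitin sulfate chains, had 605, 347, 310 and 327 in its last exon (chr8:68356781-68358713) and 28.8, 30.4, 27.9 and 84.6 in TG. The groups did not overlap there.

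Gnaz, an inhibitory G protein subunit, had 173, 70.9, 303 and 85.0 at its first coding exon (chr10:74990841-74992140) and 87.4, 94.2, 127.7 and 74.9 in TG, so control and TG scores overlapped. Dst, a cytoskeletal linker, had 78.3, 178, 220 and 180 at its exon 37 and 26.9, 61.6, 22.3 and 37.0 in TG, without overlap. Stard5, a sterol-binding protein, had 220, 109, 232 and 279 and TG scores of 36.0, 54.6, 72.2 and 89.5, also without overlap. The Stard5 locus lies outside its longest coding transcript and overlaps Il16 on the opposite strand, and whether peak calling used the strand is not given in the sources used here. Nim1k, a kinase of the AMPK-related family, had 383, 318, 190 and 167 and TG scores of 30.2, 49.6, 18.1 and 41.0.

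A further 3 had weaker or overlapping values. Txndc16, a thioredoxin domain protein, had 33.0, 108, 15.5 and 24.6 in the controls and 16.9, 66.2, 33.8 and 38.6 in TG. Ccdc148, a coiled-coil protein of poorly known role, had 49.6, 28.9, 43.4 and 20.7 in its 3′ UTR and 64.2, 17.5, 35.2 and 30.1 in TG, and was the single locus of the 11 where the mean TG score of 36.8 exceeded the control mean of 35.6. 1700047I17Rik2, which has near-identical copies so that its reads are uncertain, had 194, 81.0, 303 and 82.1 and TG scores of 38.6, 97.0, 131 and 89.8. The median log2 ratio of mean TG to mean control score over the 11 was -1.73, against -0.35 over the other 2812 loci with a peak in all control and all TG kidneys. All TG scores were below all control scores at 6 of the 11, and at 17.9% of those other loci. Over the 77 lost loci with a peak in at least 2 TG kidneys the median was -1.46, with a lower mean in TG at 69 (89.6%), against -0.51 and 68.9% over the other 4191 loci with a peak in all control and at least 2 TG kidneys.

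Peaks listed at lost loci in TG kidneys were mostly weak. The median score of lost loci in the TG kidneys that had them was 24.1, 25.7, 28.9 and 30.9, while the median score of the whole TG lists was 66.6 to 74.8. In the control kidneys the lost loci had medians of 53.9 to 63.1, also below the 71.6 to 76.9 of the whole control lists. Adrb1, the β1-adrenoceptor, was an example with 3 kidneys. Its control scores were 629, 235, 341 and 253 (chr19:56722474-56724298), and its TG scores were 133, 76.8 and 24.9 with no peak in TG kidney 4. Slc2a4, the insulin-regulated glucose transporter GLUT4, had 167, 105, 153 and 120 in its first exon and 17.0, 15.9 and 24.9 in 3 TG kidneys. App, the amyloid precursor protein, had 2 lost loci in neighbouring exons, and the one with TG peaks went from 177, 157, 233 and 188 in the controls to 14.3, 19.9 and 26.1 in 3 TG kidneys.

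A lost locus can be 1 peak of a gene that keeps others, or the gene can have no listed peak left. Of the 433 lost loci in an annotated gene, 226 (52.2%, in 209 genes) were in genes without any other peak in IG, against 26.8% of the other loci with a peak in all control kidneys. The other 207 lay in 178 genes with a peak elsewhere in at least 1 IG kidney, and for 115 of these loci (26.6% of the 433, against 53.1% of the other loci) such peaks were listed in all 4. No other locus in any kidney was listed in the gene for 140 lost loci (32.3%, against 19.4% of other loci). In TG, 148 of the 387 genes (38.2%) had no listed peak, against 4.56% of the other 2914 genes with a locus in all control kidneys. Of the 209 genes without a peak in IG, 72 (34.4%) had at least 1 in TG, while of the 281 genes with a locus in all control kidneys and no peak in TG, 51.2% had at least 1 in IG. TG lists held 5901 to 6753 peaks and IG lists 6745 to 8357, and the part of list length in these shares was not tested. A TG peak at the lost locus itself was listed for 31.4% of lost loci in genes without an IG peak and for 44.9% of those in genes with one.

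Most genes (354) had 1 lost locus and 33 had more, among them 6 with at least 3. Erc2, a scaffold protein of the presynaptic active zone, had 6 and Kif20b, a kinesin of cytokinesis, had 5. Ccdc148 and Khdrbs3, an RNA-binding protein of the STAR family, had 4 each. Plcb1, a phospholipase C, and Msh3, a DNA mismatch repair protein, had 3 each. Loci of 1 gene share its transcript and are not independent.

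Kif20b shows neighbouring exons lost together. Its exon 25 (chr19:34959416-34959571) had control scores of 428, 594, 321 and 759, and its exon 24 had 437, 177, 325 and 238. Exons 18, 23 and 26 were also lost, with mean control scores of 85.4, 127 and 119, and none of the 5 loci had a TG peak. Between them lay a locus whose control mean was 1012 and which remained in 3 IG and 3 TG kidneys at means of 34.7 and 41.8. Another 5 loci of Kif20b, with a peak in 2 or 3 control kidneys, had none in IG or TG.

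Erc2 had a similar run. Exons 7 to 12 were all lost, with mean control scores of 132, 319, 281, 76.2, 230 and 86.6 in that order, and none had a peak in TG. The strongest, exon 8 (chr14:28011636-28011773), had 429, 282, 139 and 428. Nearer to the start of the gene, a locus with a peak in 1 control kidney had one in all IG kidneys and in 2 TG kidneys. Control kidneys also had peaks at other loci on both sides of the lost exons.

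At other genes a single locus was lost beside loci that stayed. Myh9, the heavy chain of nonmuscle myosin IIA, had 494, 39.2, 490 and 546 in exon 31 (chr15:77768792-77769040), without a peak in IG or TG, while the neighbouring locus toward the gene start had a mean of 391 in controls, 460 in IG and 218 in TG, with a peak in every kidney. The locus on its other side had a peak in 3 control, 1 IG and 2 TG kidneys, and the next one in 4, 1 and 0. Casr had a second lost locus in exon 5, with 100.04, 75.9, 81.3 and 241 in controls and 18.3 and 15.0 in 2 TG kidneys. Between the lost Casr loci lay one with a control mean of 1154 that kept a peak in 3 IG kidneys (mean 68.5) and 4 TG kidneys (mean 130). At Dido1 the next locus, with a peak in 2 control kidneys, had one in all IG kidneys at a mean of 579 and in no TG kidney.

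Serbp1 was 1 of 6 genes, among the 387 with a lost locus, that also had a gained one, a locus with a peak in all IG and no control kidney. How often other genes had a gained locus was not counted, so the 6 are not read as particular to lost loci. Its 2 middle loci had a peak in all 12 kidneys, and a locus 16493 bp from the lost one had a peak in all IG kidneys at 217 ± 117 (SD, n = 4) and in 1 TG kidney. In Itih5, 2 lost loci lay beside a gained locus with a mean IG score of 58.6, which all 4 TG kidneys also had. The other genes were Mtss1, Snx29, Cars and Zbtb16, with mean IG scores at the gained locus of 133, 56.0, 127 and 65.6. The plot of loci along 6 genes shows these patterns as counts of kidneys.

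**Figure D4:**
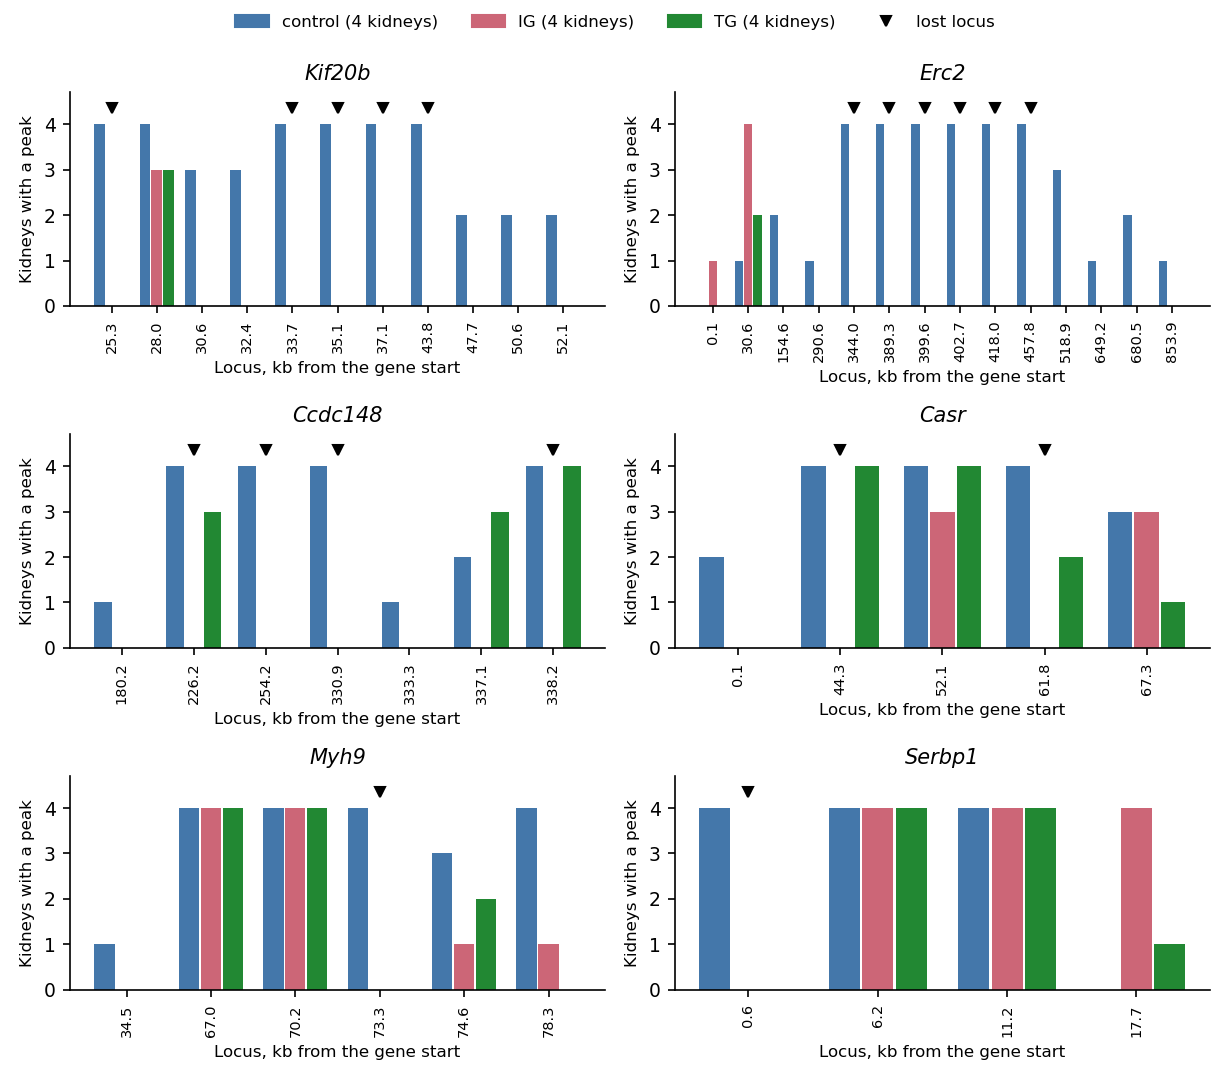
Number of kidneys with a peak (0 to 4) in control, IG and TG at every listed locus of 6 genes, ordered by genomic distance from the start of the transcript (kb). Triangles mark lost loci: 5 in Kif20b, 6 in Erc2, 4 in Ccdc148, 2 in Casr and 1 each in Myh9 and Serbp1. In Serbp1 the neighbouring locus had a peak in all 12 kidneys.

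The lost loci were spread over gene functions. In 26 lists of genes, the share of loci with a peak in all control kidneys that were lost is read beside 8.23% over all genes (433 of 5264). It was 12.5% in transcription factors without a zinc finger name (21 of 168), 9.24% in small GTPases and G protein signalling (17 of 184), 8.40% in kinases, phosphatases and their regulators (21 of 250) and 8.12% in the cytoskeleton list (22 of 271). It was 7.51% in zinc finger proteins (22 of 293), 6.803% in membrane traffic (10 of 147), 5.57% in splicing and RNA-binding proteins (17 of 305), 4.97% in ubiquitin and protein turnover (8 of 161) and 3.98% in chromatin regulators (14 of 352). With all listed loci of a list as the base, where all genes gave 2.75%, 5 lists changed sides: small GTPases and G protein signalling (2.72%), extracellular matrix (2.597%) and amino acid, sugar and xenobiotic metabolism (2.30%) then lay below it, and zinc finger proteins (3.29%) and m6A writers, readers and erasers (3.85%) above it. No test was made over a list, and the lists were written with earlier results of these data known.

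**Figure D5:**
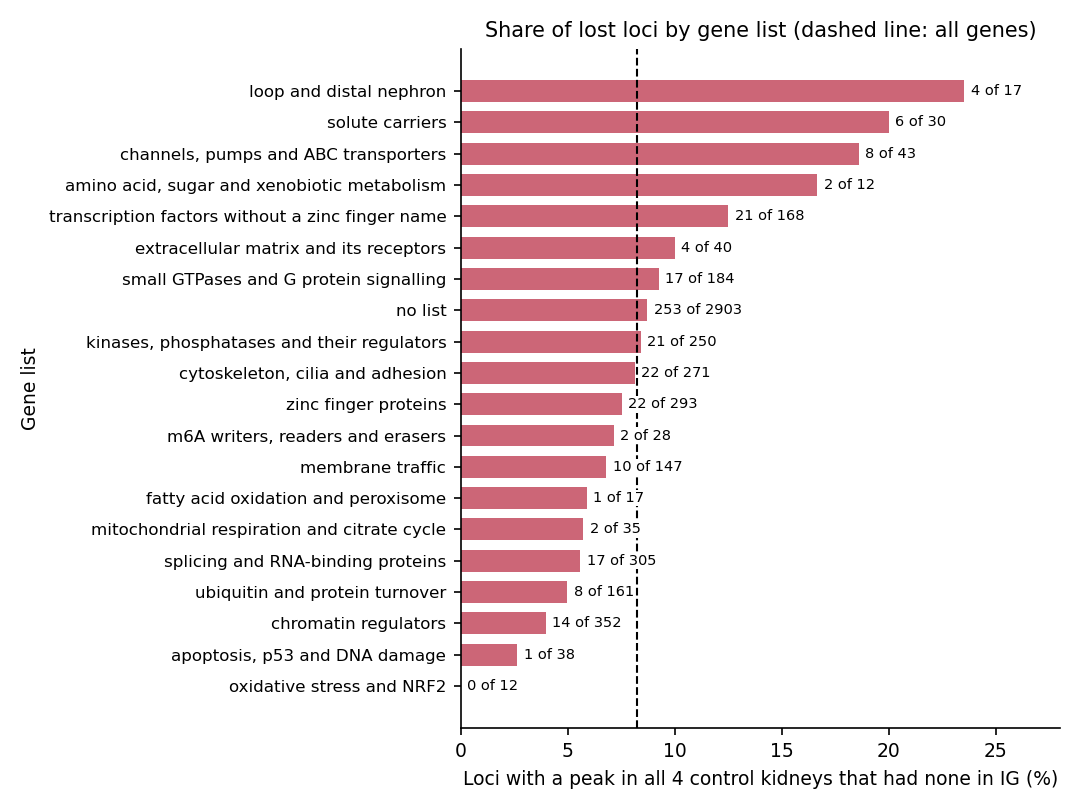
Share (%) of loci with a peak in all 4 control kidneys that had no peak in IG, for each gene list with at least 12 such loci, with the counts beside the bars. The dashed line is the share over all genes, 8.23%. The 4 highest bars rest on few loci, 4 of 17, 6 of 30, 8 of 43 and 2 of 12.

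The lists of transporters and of the loop and distal nephron had high shares over few loci. Of 30 loci of solute carriers 6 were lost, in Slc5a3, Slc2a4, Slc7a1, Slc1a2, Slc30a4 and Slc9a2. Of these, 3 had a TG peak, beside 37.9% of all lost loci. Slc7a1, a carrier of cationic amino acids, had control scores of 107, 112, 31.7 and 95.0, and TG scores of 16.5 and 13.5 in 2 kidneys. Of 43 loci of channels, pumps and ABC transporters 8 were lost, led by Abcc9, the sulfonylurea receptor SUR2, with 69.8, 185, 73.9 and 221, and Abcc1, the multidrug resistance protein MRP1, with 145, 93.9, 115 and 34.1. Each had 1 TG kidney with a peak, at 14.8 and 44.7. The other 6 lay in P2ry1, Kcng1, Atp6v1d, Kcnj12, Atp6v1g2 and Kcnn1, none with a TG peak. Among 17 loci of the loop and distal nephron list 4 were lost, 2 in Casr and 1 each in Sgms2, a sphingomyelin synthase, and Ranbp3l. Sgms2 had 180, 133, 164 and 54.9 and no TG peak at this locus. The marker genes of this list with a listed peak numbered 18 to 20 of 37 in control kidneys, 13 to 23 in IG and 13 to 22 in TG.

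The transcription factors had 21 lost loci in 19 genes, 14 of them without a TG peak, beside 62.1% of all lost loci. Cebpa, a regulator of differentiation and metabolism, had 352, 155, 244 and 338 over its single exon and no peak in IG or TG at any locus. Sall3, a developmental zinc finger factor, had 145, 241, 378 and 291 in its 3′ UTR and had a second lost locus, with no other peak of the gene in IG or TG. Loci of Sox7 and Sox17, factors of endothelium, were both lost, but Sox7 is not on the endothelial marker list. Sox7 had 65.2, 125, 210 and 123.3 and TG scores of 49.0, 52.9 and 26.9 in 3 kidneys, and Sox17 had 67.3, 17.5, 19.9 and 36.0 and TG scores of 14.3 and 31.7. Of 7 endothelial marker loci 2 were lost, Plvap and Sox17, and 2 kept a peak in all IG kidneys. Of 8 podocyte loci 1 was lost and 4 kept a peak in all IG kidneys. These small counts are read beside the 8.23% lost over all genes. The lost podocyte locus, in Kirrel (NEPH1), a protein of the slit diaphragm, had 50.6, 21.2, 38.9 and 33.4 and no TG peak. Endothelial and podocyte markers with a listed peak were also fewer in IG than in the controls, as given above, and their part in these losses was not tested.

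Among the 21 lost loci of kinases, phosphatases and their regulators 4 had a TG peak, and among the 17 of small GTPases and G protein signalling 8 had one, beside 37.9% of all lost loci. Dgkg, a diacylglycerol kinase, had 230, 211, 137 and 83.0, Dusp7, a phosphatase of ERK, had 121, 44.98, 95.0 and 163, and Plk2, a polo-like kinase induced by p53, had 204, 73.5, 34.6 and 103, and all 3 were without a TG peak. Map2k6 and Pde9a had 2 lost loci each. The loci of G protein signalling with a TG peak included those of Casr, Adrb1 and Gnaz. The second Gnaz locus in the 3′ UTR had 100.4, 51.2, 64.4 and 31.9 and TG scores of 13.6 and 35.2. Tas2r119, a bitter taste receptor, had 27.2, 19.7, 17.9 and 16.7 in the controls, which are near the lowest listed scores, and no TG peak.

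Genes that act on RNA, chromatin and protein turnover had shares below the value of all genes. Zfp36, the RNA-decay factor tristetraprolin, had 439, 386, 164 and 112 and was without any other peak in the gene. Mettl15, a methyltransferase of mitochondrial ribosomal RNA, had 250, 268, 198 and 153 and no TG peak. Ncoa1, a nuclear receptor coactivator, had 2 lost loci, one of them among the 3 with the lowest control scores. The 8 lost loci of the ubiquitin list were without a TG peak, as were 62.1% of all lost loci, and lay in Ube2u, Ube2l3, Fbxo40, Ubxn10, Klhl13, Btbd7 and Ubxn2b. Ube2l3, a conjugating enzyme, had 207, 20.7, 146 and 85.4 there while another locus of it kept a peak in all IG kidneys.

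Of the 28 loci of m6A writers, readers and erasers 2 were lost (7.14%, beside 8.23% over all genes). Ythdf1, a cytoplasmic reader, had control scores of 73.8, 97.9, 72.6 and 361 in the exon that holds most of its coding sequence (chr2:180910687-180912207). Alkbh5, an m6A demethylase, had 24.6, 18.7, 14.5 and 64.3 (chr11:60547688-60547768). Control kidney 4 had the highest score at both. No peak of either gene was listed in IG or TG. A peak in all IG kidneys was listed at 20 of the 28 loci of this list (71.4%), beside 57.1% over all genes.

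The lists of kidney injury, other cell types and metabolism held few loci with a peak in all control kidneys, so their counts are small, and they are read beside the 8.23% of all genes. None of the 7 loci of tubular injury genes, the 12 of oxidative stress and NRF2, the 5 of the collecting duct, the 3 of stroma, the 2 of the proximal tubule or the 1 of immune genes was lost. The apoptosis and DNA damage list lost 1 of 38 loci (Plk2). That list does not hold all DNA repair genes, and Msh3, whose lost loci are given above, is outside it. Fatty acid oxidation and peroxisome lost 1 of 17 (Acot13), mitochondrial respiration 2 of 35 (Cox10 and Ndufaf2) and amino acid, sugar and xenobiotic metabolism 2 of 12. Cox10, an assembly factor of cytochrome c oxidase, had 79.9, 16.4, 74.7 and 59.6, and TG scores of 24.1, 30.2 and 42.4 in 3 kidneys. The last 2 were Gsta1 and Cyp2j7, members of families with near-identical genes whose reads are uncertain. Of 40 extracellular matrix loci 4 were lost, in Mfap3, Adamts5, Thbs1 and Lama2. Thbs1, thrombospondin 1, had 72.2, 54.3, 53.01 and 21.8 and no TG peak, and no other locus in the gene.

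Membrane traffic held 10 lost loci, 5 with a TG peak, beside 37.9% of all lost loci. Ehd2, an ATPase of caveolae, had 159, 297, 115 and 303 in its 3′ UTR and TG scores of 26.6 and 149 in 2 kidneys. Chmp4b, an ESCRT-III subunit, had 25.4, 54.8, 209 and 58.5 and no TG peak at this locus. The locus assigned to Zcchc14, a zinc finger protein, with 153, 318, 550 and 338, also overlaps Map1lc3b, and 8 lost loci overlapped more than 1 gene in this way. A further 5 lost loci had no gene on the strand of their peaks and are not named.

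At the weak end of the set, Spn had control scores of 23.9, 13.2, 22.8 and 13.3, Ncoa1 18.7, 21.0, 19.3 and 14.1, and Ptprm 17.0, 13.8, 15.5 and 24.6. Spn, the leukocyte protein CD43, had 49.6 in TG kidney 3 and Ncoa1 had 37.9 there, both above all 4 control scores. At such loci the step between listed and not listed is small.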

How the data were processed

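MeRIP-seq of 4 control, 4 IG and 4 TG kidneys was used. Per the submitters' notes and the study's methods, reads were trimmed with Cutadapt 1.9.3 and aligned with Hisat2 2.0.4 to mm10 (GRCm38), peaks were called with MACS, and peaks on exons of mRNA were kept. The deposited score of each peak is -log10 of its p-value times 10. Starts count from 0 in the lists and from 1 here. The version, threshold and control of MACS are not given in the sources used here, and 12 input libraries were not analysed here.

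Overlapping peaks (1 bp or more, either strand, any kidney) formed loci, which were assigned to protein-coding genes of GENCODE M21 on the peak strand and placed on the transcript with the longest CDS. Motifs were searched in GRCm38. No test was made, because the rule used the same contrast, and depth is unknown, so precision rests on 4 kidneys per group. The members and lists were chosen with earlier results of these data known. Named are the 10 lost loci with the highest mean control score, those in all TG kidneys (the 10 with the highest mean TG score), the 10 highest in no TG kidney, genes with 3 or more, the 3 highest of each list, loci at sites the study tabulated, and the 3 lowest; others named were chosen after their values were seen. A locus that met this rule is not reported here. The code of the rule was run on simulated lists with planted loci that had the same ends and score in every list. That checks the code and cannot show how weak peaks or shifted peak ends affect the lost loci. Alternatives changed list length, score minimum, joining, the rule, codon segments and motif, and left out each kidney. Python 3.11.15, numpy 2.4.6, pysam 0.24.0, samtools 1.23.1 and matplotlib 3.10.9 were used.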

Additional observations from a re-analysis of the deposited data

Results flagged for a closer look

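Within 109 groups of 4 values, most of them scores at the named lost loci, 11 held 1 kidney far from the other 3 by Dixon's criterion. All 11 were groups of scores. Chance flags about 1 in 20 if scores are normally distributed. These skewed scores, some tied at 3100, are not, so the number of flags is not read as an excess. At Prpf38b the second control kidney had 2730 while the others were at 3100, the score at which many peaks sit. At Rbm39 the first control kidney had 2149, with the others from 3100 to 3199. The first control kidney was high at Csgalnact1 (604.81, others 310 to 347) and at the start codon locus of Khdrbs3 (104.73, others 67.9 to 73.4). The fourth control kidney was high at Ythdf1 (360.87, others 72.6 to 97.9), at exon 5 of Casr (241.23, others 75.9 to 100.04), at Ehd4 (262.02, others 13.7 to 51.4) and at Msh3 (62.13, others 14 to 20.9), and low at Adamts5 (37.31, others 62.5 to 66.4). The second control kidney was low at Myh9 (39.2, others 490.2 to 546). In TG, the fourth kidney was high at Csgalnact1 (84.61, others 27.9 to 30.4). The fourth control kidney, which had the longest list of all 12 (9579 peaks), thus stood apart at 5 of the 11. The cause was not tested.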

How the results depend on the processing

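The number of lost loci was 437 to 442 when peaks within 100 bp were joined, when a reciprocal overlap of 50% was asked for, when strands were kept apart or when control and IG lists alone formed loci. With 5901 peaks per list there were 221 lost loci (116 in 0 and 18 in 4 TG kidneys, 24.8% per TG kidney, 77 genes with another IG peak), and 58 of the 90 named loci remained. With scores of at least 71.3, the median of all lists, the values were 250, 159, 2, 14.7% and 85, and 43 named loci remained. With 3 of 4 control and at most 1 IG kidney they were 1853, 1004, 49, 19.7% and 799. Leaving out each kidney in turn gave 437 to 606 lost loci, 285 to 390 without a TG peak, 11 to 20 in all remaining TG kidneys, 13.8 to 21.5% per TG kidney and 178 to 264 genes with another IG peak. Without IG kidney 1 or 3, 20 lost loci had a peak in all TG kidneys, and without IG kidney 2 or TG kidney 2, 17, against 11. With equal list lengths, an alternative chosen after seeing the data, the mean share in the kidneys left out went from 17.8 to 26.7% in TG, from 18.4 to 20.1% in IG (IG kidney 4 from 11.3 to 17.5%) and from 76.4 to 76.8% in controls, so that TG lay below IG on average with the lists as deposited and above it with equal lengths. With codon segments of 100 nt the shares were 5.62% start codon, 67.9% CDS and 7.96% stop codon. With a locus given to any codon it holds they were 0.234% 5′ UTR, 46.6% CDS, 35.8% stop codon and 1.87% 3′ UTR. RRACH within 50 bp of the midpoint occurred at 81.7%, and GGACT in place of RRACH, over the whole locus, at 46.6%. Of 26 gene lists, 5 changed sides of the value of all genes when all listed loci were the base. No paired analysis was possible because no result comes from a test and the replicate numbers of the groups mark separate mice.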
